A study of Homo sapiens with 12 samples.

Results

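The genes described here are HIF1A, the oxygen-regulated subunit of the hypoxia-inducible factor, and 9 genes known to respond to hypoxia, namely EGLN1, EGLN3, VEGFA, ADM, CA9, NDRG1, BNIP3, BNIP3L and ANKRD37. They were chosen by name, and each matched exactly 1 row, so the set holds 10 of the 70116 gene rows in the count table. RNA was measured in MiaPaCa-2 cells, a human line established from a pancreatic carcinoma, which had received a small interfering RNA (siRNA), a short duplex that causes its matching transcript to be cut and lost. The 4 groups of 3 libraries were siControl (a control siRNA), siSLC25A1 (against the carrier that exports citrate from mitochondria), siACLY (against ATP citrate lyase, which splits cytosolic citrate) and siACO1 (against cytosolic aconitase, which also binds iron-responsive elements in transcripts). All groups are 1 cell line that had been transfected. The labels give neither the siRNA sequences, the oxygen level, the make-up of the medium nor the time after transfection, and do not say whether replicates were separate cultures, so p-values measure the spread between these libraries, which may be technical.

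Cells read oxygen through prolyl hydroxylases, which use oxygen, iron and the metabolite alpha-ketoglutarate to modify the HIF alpha subunits and mark them for the VHL ubiquitin ligase and breakdown. When hydroxylation fails, the alpha subunit persists, pairs with its partner ARNT and switches on genes for oxygen delivery, glycolysis, acid export and mitochondrial turnover. This control acts mainly on the HIF protein, which RNA levels do not show.

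Library totals ran from 24159424 to 43792811 counts. Levels are CPM (a gene's counts relative to its library's total, on edgeR's TMM scale), given for replicates 1, 2 and 3 in that order or as mean ± SD. They are shares of a library, so fewer cells of a kind and less RNA per cell cannot be told apart. Each target was low where it was targeted: SLC25A1 was at 8.75% of its control level, ACLY at 7.24% and ACO1 at 3.72%. Of 6 epithelial markers KRT8, KRT18 and KRT19 were tested and EPCAM and CDH1 had no counts in siControl, so an epithelial identity rests on keratins here. The pancreatic origin is taken from the name of the line, not from these markers. The summed level of the 6 markers was 3600 to 3740 CPM in siControl, 3120 to 3450 in siSLC25A1, 3820 to 3920 in siACLY and 2070 to 2180 in siACO1. The leukocyte markers PTPRC and CD3E had no counts in any group, the 5 leukocyte markers summed to 1.26 to 2.07 CPM in siControl and 2.82 to 3.18 in siACO1, and endothelial markers summed to at most 0.427 CPM. The fibroblast list, nearly all of it COL1A2, summed to 874 to 894 CPM in siControl and 1540 to 1590 in siACO1, while LUM had no counts in any group. The part of these marker differences in the results was not tested. Replicate 3 of siACO1 stood apart from its group: its counts gave a chi-square of 10.7 and 11.3 per degree of freedom against replicates 1 and 2, while those of all other replicate pairs within a group lay between 2.24 and 5.37. The siACO1 values of the tested members and of the main pathway genes are therefore also given without it.

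HIF binds the hypoxia response element, whose core is ACGTG or GCGTG. Windows of 300 bases around the start site, 250 before and 50 after, were searched for both cores on both strands (RefSeq, GRCh38.p14). Windows were found for 7 of the 10 genes (8 windows, 2 of them of HIF1A), and 6 windows of 6 genes held a core. Of all 35116 windows 48.4% held one or the other core, 21.4% ACGTG and 36.5% GCGTG. The stretches printed here show the core in capitals for the 6 genes that hold one, so that the sensor EGLN1 and the targets can be read beside their expression. They are printed 5′ to 3′ on the strand of the gene. A match is a description of the letters, not evidence of binding.
HIF1A, chr14:61695298-61695324, plus strand: ggctgagagcgGCGTGggctggggtgg
EGLN1, chr1:231422285-231422311, minus strand: ggccgtggtgtACGTGcagagcgcgca
ADM, chr11:10304961-10304987, plus strand: agcaggagcgcGCGTGgctgaggaaag
CA9, chr9:35673899-35673925, plus strand: cgtttccaatgCACGTacagcccgtac
BNIP3, chr10:131982041-131982067, minus strand: gcacgcgccgcACGTGccacacgcacc
ANKRD37, chr4:185396669-185396695, plus strand: cgccgggctccACGTGccagtgtttgt
ANKRD37, chr4:185396687-185396713, plus strand: agtgtttgtgtACGTGcggccgtggcg
In CA9 the core lies on the other strand and is therefore printed as CACGT, 18 bases before the start. The core of EGLN1 lies 13 bases before the start and that of ADM 101 bases before it. All these distances are from the RefSeq start, which can differ from the end of the gene in GENCODE, the source of the gene positions given below. The printed stretches of EGLN1, ADM, CA9 and ANKRD37 lie inside the GENCODE limits of these genes. BNIP3 held 2 matches to ACGTG and 4 to GCGTG, and ANKRD37 held 3 matches to ACGTG. For BNIP3 and ANKRD37 capitals mark a match to ACGTG only, and the BNIP3 stretch also holds matches to GCGTG on the other strand, left in lower case. In the BNIP3 stretch and the first ANKRD37 stretch the letters read ACGTG on both strands, so each such site was counted on each strand. No match was found in the window of EGLN3. For VEGFA, NDRG1 and BNIP3L no window was available, so these genes were not searched.

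The members fell into 3 levels. HIF1A, VEGFA and BNIP3L were abundant, at 156 ± 2.59, 126 ± 3.85 and 121 ± 2.29 CPM in siControl (SD, n = 3). EGLN1 (31.7 ± 3.17 CPM) and NDRG1 (11.6 ± 0.639 CPM) were intermediate, and ADM, BNIP3, ANKRD37, EGLN3 and CA9 lay at or below 3.20 CPM. Levels were also divided by the merged length of all exons annotated for a gene in GENCODE release 29 (CPM per kilobase). That length can exceed the transcript made, so the order of genes on this scale is uncertain. It was 14.431 kb for VEGFA and 4.307 kb for BNIP3L, which were close in CPM. Per kilobase HIF1A was at 30.2 ± 0.503 and BNIP3L at 28.2 ± 0.532, above VEGFA at 8.75 ± 0.267 and EGLN1 at 4.36 ± 0.437. ADM and NDRG1 were both at 1.18, with SDs of 0.0399 and 0.0651 and merged lengths of 2.718 and 9.823 kb. These SDs do not cover the uncertainty of the lengths, so whether the genes differ cannot be told. ANKRD37 followed at 0.598 ± 0.0425 and BNIP3 at 0.312 ± 0.0742. BNIP3L, whose product shares its role in mitochondrial clearance with that of BNIP3, was the far more abundant of these paralogues in every library. The plot of levels by library shows all 10 genes.

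**Figure D1:**
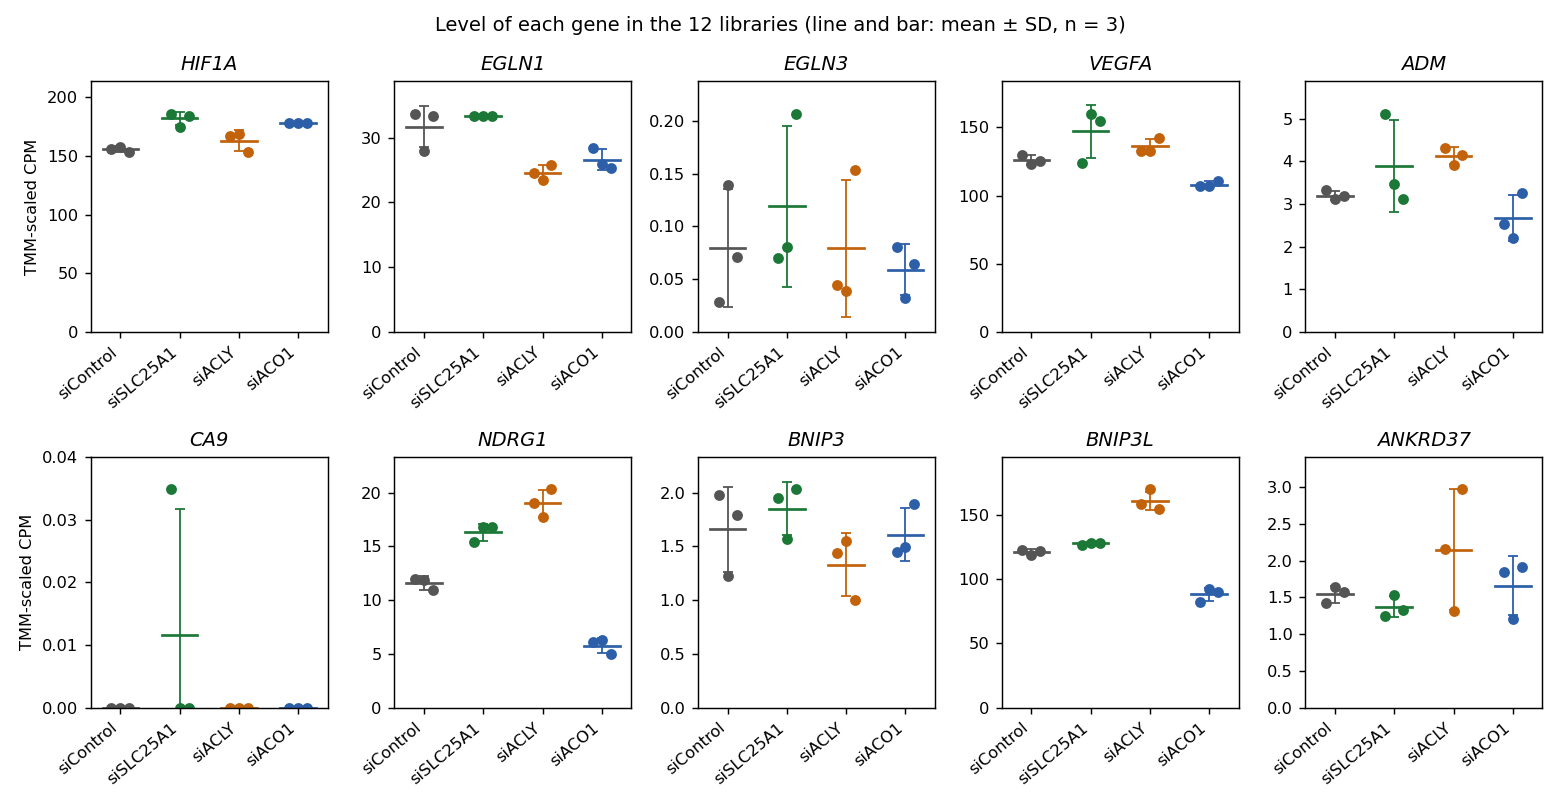
TMM-scaled CPM (vertical axis, from 0, own scale for each gene) in the 12 libraries for HIF1A and the 9 hypoxia-responsive genes, by siRNA group. Points are libraries, lines the mean and bars the SD (n = 3). NDRG1 is lowest in siACO1 (5.77) and highest in siACLY (19), and the BNIP3L means follow the same order. For BNIP3L the test did not separate siSLC25A1 from siControl. For NDRG1 the call between siSLC25A1 and siACLY was close to the threshold.

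EGLN3 and CA9 were too low to test. CA9 encodes a cell-surface carbonic anhydrase and is a widely used marker of HIF activity. Of the 12 libraries only siSLC25A1 replicate 1 had a CA9 count, and that was 1 count. For an observed 0 the upper 95% limit from counting error alone is about 3 counts, which corresponds to 0.0674 to 0.124 CPM. EGLN3, a hypoxia-induced prolyl hydroxylase, had 1 to 5 counts in each library. A low row in this table need not mean a silent gene: LDHA, chosen for this remark after its values were seen, had 0 to 4 counts in each library, while PKM, which acts just before it in glycolysis, was at 3130 CPM in siControl. How the authors' counting treated such genes was not tested. In GENCODE release 29, 38.5% of the exon bases of CA9 and 35.2% of those of ANKRD37 lie over exons of a gene on the other strand (ARHGEF39 and UFSP2). Whether counting used the strand is not given in the sources used here, so both are uncertain.

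The other 8 genes were tested in an edgeR quasi-likelihood fit of all 12 libraries over 16197 genes, and a gene was called at a Benjamini-Hochberg adjusted p under 0.05. In siSLC25A1 against siControl 3 of the 8 were called, all higher (HIF1A, VEGFA and NDRG1), where 19.6% of all genes tested were called, 10.3% higher and 9.27% lower. In siACLY 3 were called, NDRG1 and BNIP3L higher and EGLN1 lower, where 36.7% of all genes were called, 18.4% higher and 18.3% lower. In siACO1 5 were called, HIF1A higher and EGLN1, VEGFA, NDRG1 and BNIP3L lower, where 37.1% of all genes were called, 17.8% higher and 19.3% lower. The siACLY count is 37.5% of the 8 genes, near the background share, and was 5 genes, with VEGFA and ADM added, when only the 2 groups were fitted. Median log2 fold changes of the 8 genes were 0.19, 0.24 and -0.24 in this order, beside 0.00, 0.01 and 0.01 over all genes tested. Without siACO1 replicate 3 the count in siACO1 was 4, because VEGFA was no longer called. In the 3 knockdowns 3, 5 and 4 of the 8 genes had libraries that did not overlap those of siControl, beside 37.1%, 50.5% and 46.3% of all genes. The 3 comparisons share their control libraries.

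**Figure D2:**
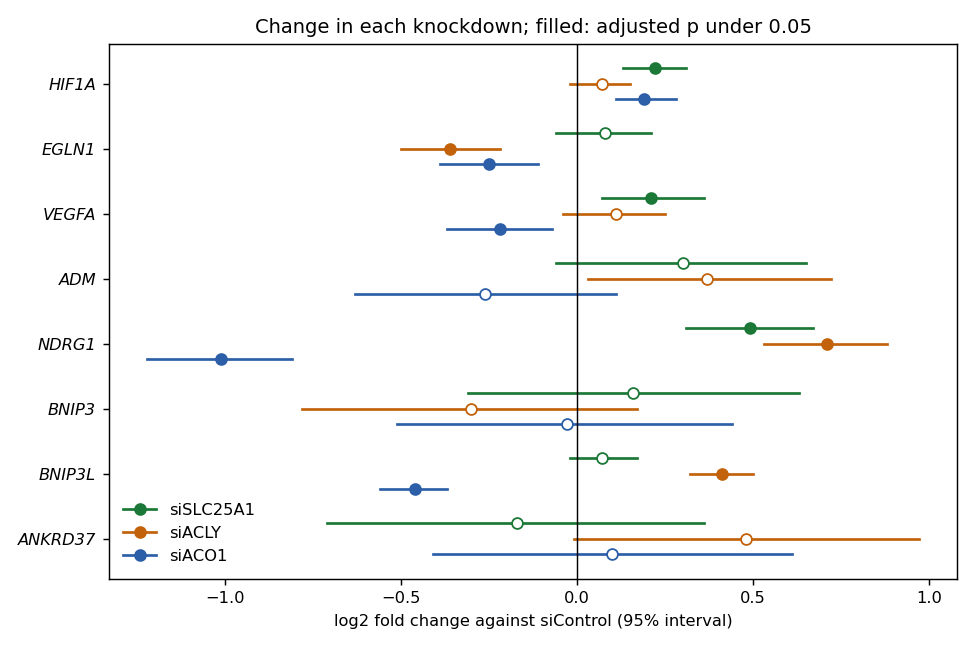
Log2 fold change of each knockdown against siControl (horizontal axis) for the 8 genes tested, with 95% intervals from the edgeR fit. Filled points passed an adjusted p of 0.05, and NDRG1 and BNIP3L lie to the right of 0 in siACLY and to the left in siACO1.

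HIF1A (ENSG00000100644, chromosome 14, 61695513 to 61748259, plus strand, GENCODE release 29 on GRCh38) encodes the oxygen-labile subunit. It stood at 156, 158 and 153 CPM in siControl, at 186, 175 and 184 in siSLC25A1, at 167, 169 and 153 in siACLY and at 178, 178 and 178 in siACO1. All libraries of siSLC25A1 and siACO1 were above all controls, while those of siACLY overlapped them. The rise was 1.17-fold in siSLC25A1 (log2 fold change 0.22, SE 0.04, adjusted p 0.000272) and 1.14-fold in siACO1 (0.19, SE 0.04, adjusted p 0.000528). In siACLY the log2 fold change was 0.07, with a 95% interval from -0.02 to 0.15 (adjusted p 0.223), and it was called with library totals as the only scaling (0.11, adjusted p 0.0423). The siACO1 value was 0.19 without replicate 3 as well. From lowest to highest the order was siControl, siACLY, siACO1 and siSLC25A1, of which siControl and siACLY, and siACO1 and siSLC25A1, are neighbours that the test did not separate. HIF1A-AS1, the antisense gene over part of HIF1A, was at 0.103 CPM in siControl.

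EGLN1 (ENSG00000135766, chromosome 1, 231363751 to 231425044, minus strand) encodes PHD2, the main prolyl hydroxylase that marks HIF1A in oxygenated cells. Its levels were 33.7, 28.0 and 33.4 CPM in siControl and 33.4, 33.3 and 33.4 in siSLC25A1. They were 24.5, 23.5 and 25.8 in siACLY, all below every control, and 28.4, 26.0 and 25.3 in siACO1, where replicate 1 overlapped the lowest control. EGLN1 fell by 0.36 on the log2 scale in siACLY (SE 0.07, adjusted p 0.000111) and by 0.25 in siACO1 (SE 0.07, adjusted p 0.00411; -0.22 and adjusted p 0.0131 without siACO1 replicate 3). In siSLC25A1 the log2 fold change was 0.08 with an interval from -0.06 to 0.21. In siACO1 the transcript of the substrate, HIF1A, was thus higher and that of its hydroxylase lower.

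VEGFA (ENSG00000112715, chromosome 6, 43770184 to 43786487, plus strand) encodes the main secreted growth factor for blood vessels. It was at 130, 123 and 125 CPM in siControl, at 124, 160 and 155 in siSLC25A1, at 133, 133 and 142 in siACLY and at 107, 107 and 111 in siACO1. In siSLC25A1 replicates 2 and 3 were above the controls and replicate 1 lay among them. The log2 fold change there was 0.21 (SE 0.07, adjusted p 0.0372). That call was lost when any 1 siControl library was left out (0.19 to 0.24, adjusted p 0.0506 to 0.118), without siSLC25A1 replicate 2 (0.14) or 3 (0.17), and when only the 2 groups were fitted (adjusted p 0.179); without siSLC25A1 replicate 1 the value was 0.32. In siACO1 all libraries were below all controls and VEGFA fell by 0.22 on the log2 scale (SE 0.07, adjusted p 0.0183). The siACO1 call was lost without replicate 3 (-0.24, adjusted p 0.0724), without replicate 2 (-0.21), without siControl replicate 1 (-0.20) and with library totals (-0.17). In siACLY VEGFA was at 108% of control, with all libraries above the controls and an adjusted p of 0.244.

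ADM (chromosome 11, 10304680 to 10307397, plus strand) encodes adrenomedullin, a secreted peptide that widens vessels. From 63 to 192 counts a library, it was at 3.32, 3.11 and 3.18 CPM in siControl, 5.12, 3.46 and 3.11 in siSLC25A1, 4.31, 3.91 and 4.16 in siACLY and 2.53, 2.21 and 3.27 in siACO1. Replicate 1 of siSLC25A1 was the highest library of all, and all siACLY libraries lay above the controls. No change against siControl passed the test: log2 fold changes were 0.30 in siSLC25A1 (interval -0.06 to 0.65), 0.37 in siACLY (0.03 to 0.72, adjusted p 0.0856) and -0.26 in siACO1 (-0.63 to 0.11). The siSLC25A1 value rested on replicate 1, without which it was 0.04. The siACO1 value was -0.44 without replicate 3 (adjusted p 0.0737) and -0.13 without replicate 2.

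NDRG1 (ENSG00000104419, chromosome 8, 133237171 to 133302022, minus strand), a stress-responsive gene that is induced by hypoxia and by iron depletion, had the largest changes of the 8 genes. Its levels were 12.0, 11.9 and 10.9 CPM in siControl, 15.4, 16.8 and 16.8 in siSLC25A1, 19, 17.7 and 20.3 in siACLY and 6.07, 6.24 and 5.00 in siACO1. No library of any group overlapped those of another. NDRG1 rose 1.40-fold in siSLC25A1 (log2 fold change 0.49, SE 0.09, adjusted p 0.000134) and 1.63-fold in siACLY (0.71, SE 0.09, adjusted p 1.32e-07). In siACO1 it fell to 49.8% of the control mean, a log2 fold change of -1.01 (SE 0.10, adjusted p 2.39e-09). Replicate 3 was the lowest library of that group, and without it the value was -0.92 (adjusted p 3.99e-09). Over all alternatives the siACO1 value lay between -1.08 and -0.92.

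BNIP3L (ENSG00000104765, chromosome 8, 26382898 to 26505636, plus strand) encodes a receptor on mitochondria that recruits the autophagy machinery. It was at 123, 119 and 122 CPM in siControl, at 127, 128 and 128 in siSLC25A1, at 159, 170 and 155 in siACLY and at 82.1, 92.2 and 89.9 in siACO1. It rose 1.33-fold in siACLY (log2 fold change 0.41, SE 0.04, adjusted p 2.26e-08) and fell to 72.5% of control in siACO1 (-0.46, SE 0.05, adjusted p 3.15e-09), with a value of -0.48 without siACO1 replicate 3. In siSLC25A1 all libraries were above the controls, but by 0.07 on the log2 scale (interval -0.02 to 0.17, adjusted p 0.273).

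BNIP3 (chromosome 10, 131966455 to 131982013, minus strand), its paralogue and likewise a mitophagy receptor, had 26 to 71 counts a library. It lay at 1.98, 1.22 and 1.79 CPM in siControl, 1.95, 1.57 and 2.03 in siSLC25A1, 1.44, 1.55 and 1.00 in siACLY and 1.45, 1.49 and 1.89 in siACO1. All groups overlapped siControl, and the intervals of the log2 fold change were wide, from -0.31 to 0.63 in siSLC25A1, -0.78 to 0.17 in siACLY and -0.51 to 0.44 in siACO1. The siACO1 interval holds the change seen there for BNIP3L (-0.46), and the siACLY interval does not hold the rise seen for it (0.41). With 1 library left out the value lay between -0.03 and 0.32 in siSLC25A1, -0.50 and -0.15 in siACLY and -0.22 and 0.12 in siACO1, where it was -0.17 without siACO1 replicate 3. ANKRD37, an ankyrin repeat protein gene known as a direct HIF target, had 32 to 96 counts a library. Its levels were 1.42, 1.64 and 1.57 CPM in siControl, 1.25, 1.53 and 1.33 in siSLC25A1, 2.16, 1.32 and 2.97 in siACLY and 1.85, 1.20 and 1.92 in siACO1. The siACLY libraries were the most scattered, with replicate 2 below all controls and the other two above them (log2 fold change 0.48, interval -0.01 to 0.97, adjusted p 0.121; 0.70 and adjusted p 0.0224 without siACLY replicate 2, 0.21 and adjusted p 0.575 without replicate 3). UFSP2, whose exons overlap those of ANKRD37, was at 12.9 ± 1.70 CPM in siControl and was called lower in siACO1 (log2 fold change -0.28, adjusted p 0.0261; lost without siControl replicate 1 or 2, siACO1 replicate 1 or 2, with library totals, and at 0.05 with only the 2 groups), where ANKRD37 stood at 0.10 (interval -0.41 to 0.61; -0.04 without siACO1 replicate 3 and 0.29 without replicate 2).

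The knockdowns were compared with each other in contrasts that involve no control library. In siSLC25A1 against siACLY, siSLC25A1 against siACO1 and siACLY against siACO1, 5, 4 and 5 of the 8 genes did not overlap, beside 46.5%, 48% and 49% of all genes. Between siACLY and siACO1 5 of the 8 genes were called, 4 higher in siACLY and HIF1A lower, where 42.1% of all genes tested were called, 21.4% higher and 20.7% lower. NDRG1 was 3.29-fold higher in siACLY (log2 difference 1.72, SE 0.10, adjusted p 1.13e-14) and BNIP3L 1.83-fold higher (0.87, SE 0.05, adjusted p 3.17e-15). ADM (0.63, SE 0.18, adjusted p 0.00452) and VEGFA (0.33, SE 0.07, adjusted p 0.000937) were higher in siACLY as well. HIF1A went the other way (-0.13, SE 0.04, adjusted p 0.0172), a call lost without siACLY replicate 3 (-0.08). Without siACO1 replicate 3 the count was again 5.

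Between siSLC25A1 and siACO1 5 genes were called as well, all higher in siSLC25A1, where 42.1% of all genes were called, 21.8% higher and 20.3% lower. NDRG1 was 2.83-fold higher (1.5, SE 0.10, adjusted p 3.25e-13), BNIP3L 1.45-fold (0.54, SE 0.05, adjusted p 1.16e-10), VEGFA 1.35-fold (0.43, SE 0.07) and EGLN1 1.26-fold (0.33, SE 0.07). ADM was 1.47-fold higher (0.55, SE 0.18, adjusted p 0.0144), and that call was lost without siSLC25A1 replicate 1 (0.29, adjusted p 0.23) or siACO1 replicate 2 (0.43, adjusted p 0.0876). HIF1A did not separate these knockdowns (0.03, interval -0.06 to 0.11).

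Between siSLC25A1 and siACLY 5 genes were called, 2 higher and 3 lower, where 33.8% of all genes were called, 17.5% higher and 16.3% lower. The count was 3 with DESeq2 and 2 without siACLY replicate 3, and it was 3 without siACLY replicate 1 or siSLC25A1 replicate 2 or 3. EGLN1 was higher in siSLC25A1 (0.44, SE 0.07, adjusted p 1.22e-05), as was HIF1A (0.15, SE 0.04, adjusted p 0.00536; 0.11 and adjusted p 0.0561 without siACLY replicate 3). BNIP3L was lower (-0.34, SE 0.05, adjusted p 9.09e-07). NDRG1 (-0.22, adjusted p 0.0444) and ANKRD37 (-0.65, adjusted p 0.0456) were close to the threshold. The NDRG1 call was lost in 8 of 13 alternatives, among them DESeq2 (adjusted p 0.0665), each siSLC25A1 library left out in turn and siACLY replicates 1 and 3. That of ANKRD37 was lost with DESeq2, without each siSLC25A1 library and without siACLY replicate 1 or 3 (-0.64 and -0.38).

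The rest of the pathway was read from 4 lists of 108 genes in all, 88 of them tested. Of the 88, 17 were called higher and 17 lower in siSLC25A1, 25 and 25 in siACLY, and 23 and 27 in siACO1, which is 38.6%, 56.8% and 56.8% of them, beside 19.6%, 36.7% and 37.1% of all genes. Their median log2 fold changes were -0.05, 0.00 and -0.02. Without regard to sign the medians were 0.12, 0.20 and 0.20, beside 0.15, 0.20 and 0.21 over all genes tested. The higher shares of calls thus did not go with larger typical changes, and their cause was not tested. Genes of the pathway thus moved in both directions in each knockdown.

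**Figure D3:**
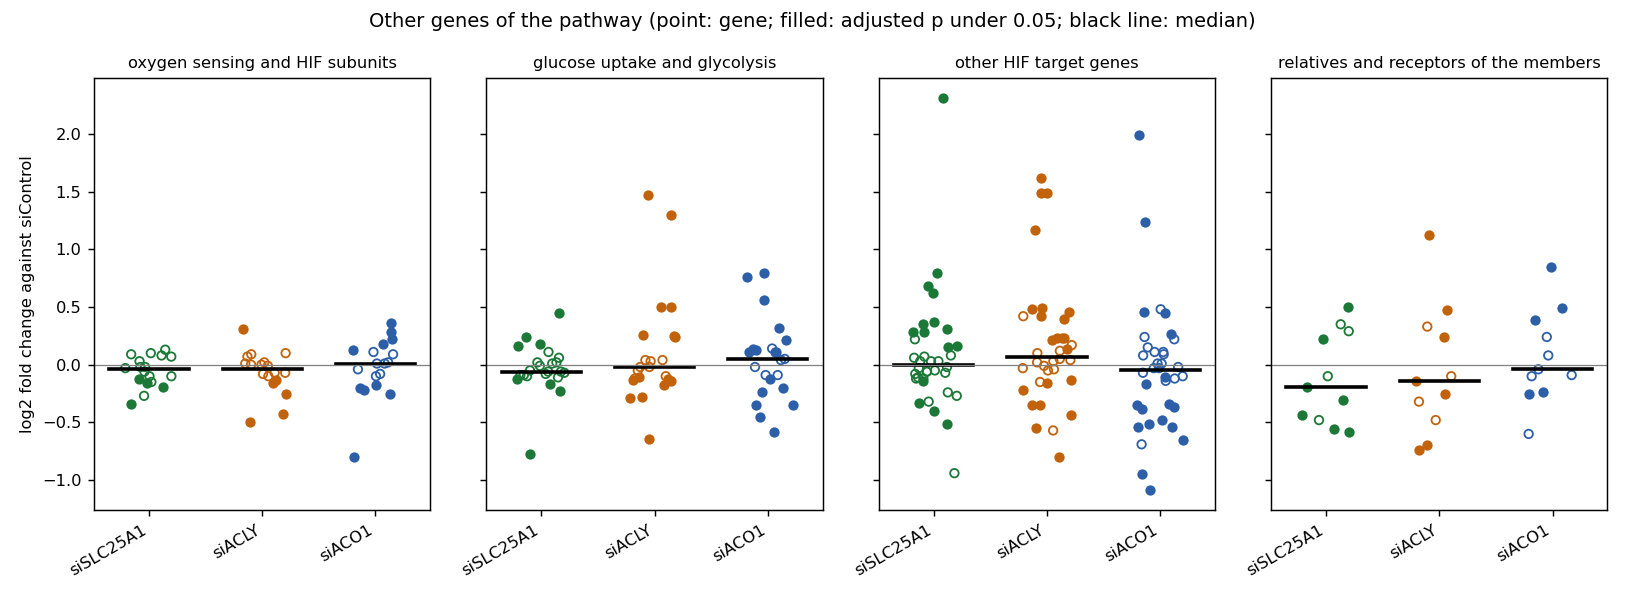
Log2 fold change against siControl (vertical axis) for the tested genes of 4 lists, by knockdown. Each point is a gene, filled where the adjusted p is under 0.05, and black lines are list medians, which lie between -0.19 and 0.07.

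Of the oxygen sensing list 18 of 20 genes were tested, and HIF3A, a HIF alpha paralogue, had no counts. Called were 22.2% of them in siSLC25A1, 33.3% in siACLY and 55.6% in siACO1, of which the siSLC25A1 and siACLY shares are near those of all genes. The median log2 fold change without regard to sign was 0.10, 0.08 and 0.15, beside 0.15, 0.20 and 0.21 over all genes. In siSLC25A1 4 were called and all were lower: CITED2, which competes with HIF for its coactivators (-0.19), HSP90AA1, a chaperone that stabilises HIF1A (-0.34), RACK1, which promotes its oxygen-independent breakdown (-0.16), and OS9 (-0.12, adjusted p 0.047), a call lost in 8 of 13 alternatives, among them without any 1 siControl library and without siSLC25A1 replicate 1 or 3. In siACLY 1 was higher and 5 were lower. VHL, the substrate receptor of the ligase, fell from 79.4, 76.8 and 77.2 CPM to 55.7, 57.8 and 51.5 CPM (log2 fold change -0.50, SE 0.05, adjusted p 3.95e-09), and its partner ELOB by 0.25. The other ligase subunits listed did not all move alike. In siACLY CUL2 averaged 73.7 CPM (82.4 in siControl), ELOC 52.2 (54.8 in siControl) and RBX1 45.1 (44.4 in siControl). In siACO1 5 were higher and 5 lower, and VHL stood at 100% of control (adjusted p 0.928). CITED2 rose by 0.31 in siACLY and by 0.28 in siACO1. P4HTM, a membrane-bound prolyl hydroxylase, rose by 0.36 in siACO1 (adjusted p 0.0294), a call lost without siControl replicate 3 (0.28), without siACO1 replicate 1 (0.32) or 2 (0.33), and without a filter (0.35). EPAS1, which encodes the HIF2 alpha subunit and carries an iron-responsive element, was at 1.53, 2.69 and 1.46 CPM in siControl and at 1.09, 1.14 and 1.06 in siACO1 (log2 fold change -0.80, SE 0.25, adjusted p 0.0105). That call rested on siControl replicate 2, without which the value was -0.46 (adjusted p 0.182). Without siACO1 replicate 3 it was -0.78, that of CITED2 0.24 and that of P4HTM 0.42.

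Of the glucose uptake and glycolysis list 23 of 24 genes were tested. Called higher and lower were 4 and 4 in siSLC25A1, 7 and 8 in siACLY and 10 and 7 in siACO1. These are 34.8%, 65.2% and 73.9% of them, beside 19.6%, 36.7% and 37.1% of all genes. Typical changes were smaller than over all genes, however. The median log2 fold change without regard to sign was 0.09, 0.14 and 0.14, beside 0.15, 0.20 and 0.21. SLC2A1, the glucose transporter GLUT1, rose in each knockdown, by 0.24 in siSLC25A1, 0.24 in siACLY and 0.11 in siACO1 on the log2 scale. The siACO1 call was lost without siACO1 replicate 3 (0.07), without any 1 siControl library (0.10 to 0.12), without a filter and with only the 2 groups fitted. SLC2A3, the transporter GLUT3, rose from 21.7, 21.7 and 21.3 CPM to 48.8, 54.4 and 56.3 in siACLY (1.30, SE 0.08) and to 35.8, 36.6 and 39.6 in siACO1 (0.79, SE 0.08). HK2, the hypoxia-inducible hexokinase, stood at 173, 160 and 174 CPM in siControl, at 225, 238 and 228 in siSLC25A1 (0.45, SE 0.05, adjusted p 1.5e-08) and at 115, 118 and 106 in siACO1 (-0.58, SE 0.05, adjusted p 3.73e-11). In siACLY HK2 was at 103% of control. ALDOC, a brain-type aldolase, rose by 1.47 in siACLY and 0.76 in siACO1 and fell by 0.77 in siSLC25A1. Its levels were low, with means of 2.71 CPM in siControl, 1.59 in siSLC25A1, 7.51 in siACLY and 4.58 in siACO1. SLC16A3, the lactate exporter MCT4, fell by 0.64 in siACLY. ENO2 rose by 0.56 and GPI fell by 0.20 in siACO1, and GPI fell by 0.23 in siSLC25A1. Mean ENO2 was 71.9 CPM in siControl, 81.7 in siSLC25A1 and 86 in siACLY. For siSLC25A1 and siACLY the alternatives were not run on ENO2. ALDOA averaged 11.1 CPM in siControl, and 53.5% of its exon bases overlap other genes, so its count is uncertain. Without siACO1 replicate 3 the siACO1 values were 0.75 for SLC2A3, -0.54 for HK2, 0.69 for ALDOC, 0.55 for ENO2 and -0.22 for GPI, all still called.

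**Figure D4:**
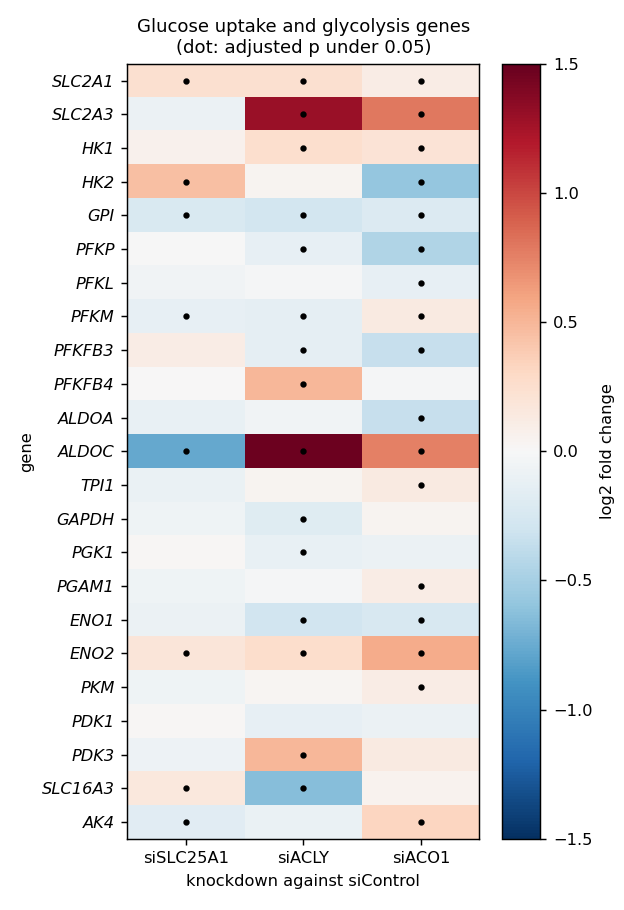
Log2 fold change (colour, limits -1.5 to 1.5) of 23 glucose uptake and glycolysis genes (rows) in each knockdown against siControl (columns), with a dot where the adjusted p is under 0.05. SLC2A3 and ALDOC rise in siACLY and siACO1, while HK2 rises in siSLC25A1 and falls in siACO1.

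Of the other HIF targets 36 of 43 were tested, with 11 called higher and 4 lower in siSLC25A1, 14 and 8 in siACLY and 5 and 13 in siACO1. These are 41.7%, 61.1% and 50% of them, beside 19.6%, 36.7% and 37.1% of all genes. The median log2 fold change without regard to sign was 0.15, 0.23 and 0.25, beside 0.15, 0.20 and 0.21 over all genes. HMOX1, which degrades heme, was at 19.9 ± 0.830 CPM in siControl, 30.6 ± 1.70 in siSLC25A1, 55.9 ± 4.15 in siACLY and 15.4 ± 2.03 in siACO1, and VLDLR, a lipoprotein receptor, fell to 51.9% of control in siACO1 (a value of -0.95, SE 0.13, adjusted p 8.49e-07) while it rose by 0.40 in siACLY. Its siSLC25A1 libraries (9.34, 10.7 and 13.6 CPM) overlapped both the controls and siACLY. ANGPTL4, an inhibitor of lipoprotein lipase, was lowest in siACO1 as well, at 15 CPM in each library against 33.5, 30.1 and 32.6 in siControl (-1.09, SE 0.07, adjusted p 1.32e-13), but it also fell in siACLY (-0.35). BHLHE41, a transcriptional repressor, rose by 0.79 in siSLC25A1 and TGFB1, a secreted growth factor, by 0.68. ZNF395 and HILPDA, a lipid droplet protein gene, fell in siACLY by 0.80 and 0.55; 34.9% of the exon bases of ZNF395 overlap another gene, so its count is uncertain. Without siACO1 replicate 3 the siACO1 values were -1.09 for ANGPTL4, -0.85 for VLDLR and -0.47 for HMOX1, all still called.

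Among relatives and receptors of the members 11 of 21 genes were tested, with 2 called higher and 5 lower in siSLC25A1, 3 and 4 in siACLY and 3 and 2 in siACO1. These are 63.6%, 63.6% and 45.5% of them, beside 19.6%, 36.7% and 37.1% of all genes. The siACO1 share is near that of all genes. The median log2 fold change without regard to sign was 0.35, 0.33 and 0.24, beside 0.15, 0.20 and 0.21 over all genes. The VEGF receptors FLT1 and KDR were at 0.0491 and 0 CPM in siControl and were not tested, nor was CALCRL, the receptor of adrenomedullin, at 0.0371 CPM. NRP1, a coreceptor for VEGFA, fell in all 3 knockdowns, by 0.58 in siSLC25A1, 0.70 in siACLY and 0.25 in siACO1, the last a call lost with library totals (-0.20), without siControl replicate 2 (-0.22) and without siACO1 replicate 3 (-0.20). VEGFC, a growth factor for lymphatic vessels, rose in all 3 (0.22, 0.24 and 0.39), where the siSLC25A1 call was lost when siControl replicate 1 (0.22), siControl replicate 2 (0.21) or siSLC25A1 replicate 1 (0.19) was left out. VEGFB rose in siACO1 (0.49, SE 0.12, adjusted p 0.00457; 0.32 without siACO1 replicate 3). Within the NDRG family NDRG4 rose in all 3 knockdowns (0.50, 0.47 and 0.85), also in siACO1, where NDRG1 fell, and NDRG2 fell by 0.56 in siSLC25A1 and 0.74 in siACLY, where NDRG1 rose.

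The genes whose levels followed HIF1A most closely over the 12 libraries were named by Pearson's r of log2 CPM among 9967 other genes that averaged 5 CPM or more. They were RRM2 (r 0.931), CCDC50 (0.927), SLC38A9 (0.921), SRGAP2B (0.915) and TGFB1 (0.905), as a description over libraries that share their groups. RRM2 averaged 296, 382, 322 and 369 CPM in siControl, siSLC25A1, siACLY and siACO1, and TGFB1 10.9, 17.3, 11.8 and 15. Of the exon bases of RRM2 20.2% overlap another gene, and SRGAP2B has near-identical copies, so both counts are uncertain. Among the hypoxia-responsive genes r with HIF1A lay between -0.46 (ANKRD37) and 0.45 (BNIP3), and was -0.26 for NDRG1, -0.37 for BNIP3L and -0.12 for VEGFA.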

How the data were processed

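Polyadenylated RNA of 12 libraries was sequenced, and the authors deposited 1 table of raw read counts per Ensembl gene, as the file headers and whole-number values show. The submitters' processing notes name STAR 2.7.0e, Trim Galore, DESeq2 and the builds GRCh38 and GRCm39, with no role; the counting tool, annotation and strand setting are not given in the sources used here. Of 70116 rows, 62700 matched a symbol (89.4%). Genes were kept with edgeR's filterByExpr (16197), scaled by TMM and tested by robust quasi-likelihood in edgeR 4.0.16 under R 4.3.3, in one model of the 4 groups without a block (8 residual degrees of freedom). F tests were two-sided with Benjamini-Hochberg adjustment over all genes tested. SEs are the log2 fold change divided by the square root of F. Alternatives were 2 scalings, 2 filters, DESeq2 1.42.0, fits of 2 groups, a replicate block and each library left out. Replicates were not averaged before testing, since their counts differed by more than sampling noise. Positions, exon lengths and overlaps come from GENCODE release 29, which need not be the authors' annotation. Members and lists were chosen with earlier results of these data known. Named pathway genes are, for each list and knockdown, up to 3 called genes with the largest change, a mean of 5 CPM or more in one of the groups and libraries outside the control range; OS9, EPAS1, PKM and LDHA, the untested receptors, values of named genes in other knockdowns, UFSP2 and HIF1A-AS1 were added after values were seen. One gene that the rule names is not reported here. Depth limits EGLN3 and CA9, and counting limits cover counting error only.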

Additional observations from a re-analysis of the deposited data

How the results depend on the processing

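Of 624 alternative values for 48 member results, 579 kept their direction and side of the threshold, 28 lost the call, 6 gained it and 11 changed sign, none of the last in a called result. The signs that changed were those of HIF1A between siSLC25A1 and siACO1 (-0.02 with library totals), BNIP3 in siACO1 (0.01 with library totals, and -0.22 to 0.12 with 1 library left out), EGLN1 in siSLC25A1 (-0.01 to 0.12 with 1 library left out), BNIP3 in siSLC25A1 (-0.03 to 0.32), ANKRD37 in siACO1 (-0.04 to 0.29) and ADM between siSLC25A1 and siACLY (-0.33 to 0.06). The count of called members in siACLY was 5 when only the 2 groups were fitted. Between siSLC25A1 and siACLY it was 3 with DESeq2 and 2 to 5 with 1 library left out. The cause was not tested. Counts of pathway genes and of all genes stayed within 1.5 times. Of 507 values for 39 results of pathway and targeted genes 4 lost the call, all of them of P4HTM. For 14 further results, of genes named after their values were seen, the same alternatives were added after seeing the data, and 27 of 182 values lost the call and none changed sign. With library totals the share of higher genes among all calls was 61.0% against 50.1% in siACLY, 59.4% against 47.9% in siACO1, 41.0% against 51.8% between siSLC25A1 and siACLY and 42.3% against 51.8% between siSLC25A1 and siACO1. Replicate numbers did not pair the libraries (r of deviations -0.03 to 0.07 for 18 same-number pairs; 6 of 12 libraries correlated best with their own number). With a replicate block the called members numbered 3, 3 and 5 in siSLC25A1, siACLY and siACO1, as without it, and the log2 fold change of NDRG1 in siACO1 was -1.01. Depth limits ADM, BNIP3 and ANKRD37, whose intervals are wide.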
